A study of Rattus norvegicus with 31 samples.

Results

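Hepatic transcripts of rats given imazalil (IMZ) together with clothianidin (CTD) were set directly against those of rats given CTD alone at full dose. The samples were chosen by treatment label: the 4 IMZ + CTD rats and the 3 CTD rats, 7 of the 31 livers in the series. Of 26312 genes in the count table, the 19904 with a summed count of at least 2 over all 31 libraries were tested. The mixture consisted of IMZ at 46 mg/kg bw/day plus CTD at 135 mg/kg bw/day, whereas the rats on CTD alone took 288 mg/kg bw/day. All were female Wistar (Crl:WI) rats, described as young adults, gavaged daily for 28 days with compounds suspended in 0.5% carboxymethyl-cellulose at 7.5 ml/kg bw. Reference levels come from 8 control rats given that vehicle, 4 IMZ rats (93 mg/kg bw/day) and 4 THI + CTD rats, which were dosed with thiacloprid (THI) at 54 mg/kg bw/day plus CTD at 134 mg/kg bw/day. The ranges over all other libraries also include 4 THI rats (108 mg/kg bw/day) and 4 THI + IMZ rats (54 mg/kg bw/day THI plus 46 mg/kg bw/day IMZ). The mixture thus held less than the full dose of CTD and in addition IMZ, and in this comparison the lower dose of one and the presence of the other cannot be told apart. The CTD group is limited as a model by its 3 rats, since the study states that one or more animals at this dose were killed moribund.

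IMZ is an azole fungicide, made to block the demethylase of fungal sterol synthesis, and CTD and THI are neonicotinoid insecticides, which act on nicotinic acetylcholine receptors of insects. In rodent liver, many such compounds are sensed by the nuclear receptors CAR and PXR, which switch on genes of drug metabolism such as the Cyp2b enzymes. Activators of CAR also make the liver grow and its hepatocytes divide. Whole liver RNA holds the transcripts of hepatocytes together with those of blood, vessel and immune cells, so that fewer cells of a type and less RNA per cell cannot be told apart.

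The labelled tissue was checked on its markers. The 15 hepatocyte markers together made up 220717 to 277251 counts per M counts (CPM) in the IMZ + CTD rats, 212401 to 232493 CPM in the CTD rats and 212319 to 275099 CPM in controls. Sequencing depth was alike in both groups, with 31.9 to 36.6 M counts per IMZ + CTD library and 31.8 to 38.4 M per CTD library (exact permutation test over the 35 regroupings of the 7 rats, two-sided p = 0.69). Genes of the mitochondrial genome took 0.241% to 0.351% of the counts in the IMZ + CTD rats and 0.423% to 0.552% in the CTD rats, and the ranges did not overlap. Over the other 28 libraries that share ran from 0.192% to 0.420%. This difference had p = 0.029 in the exact test, the smallest p that 35 regroupings can give, and an adjusted p of 0.11 over the 4 library measures compared. The remaining measures, the share of the 10 most abundant genes and the number of genes with at least 10 counts, had adjusted p = 0.27 each.

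The CTD libraries stood apart from all others in the series, and this bears on each result that follows. Among the 11297 genes with a mean log2 CPM above 0, all 3 CTD libraries lay outside every one of the other 28 libraries for 459 genes, above them for 195 and below them for 264. The same count was 7 for IMZ + CTD, 8 for THI + CTD, 9 for THI + IMZ, 2 for THI, 2 for IMZ and 15 for controls. A group of 3 libraries can lie outside the rest more readily than one of 4 or 8, and how much of the 459 that accounts for was not tested. In 13 of these genes the gap to the nearest other library was at least 1.5-fold. The comparison cannot be made without the CTD libraries, so results are given below with the levels in the other groups and with each rat left out in turn.

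**Figure D1:**
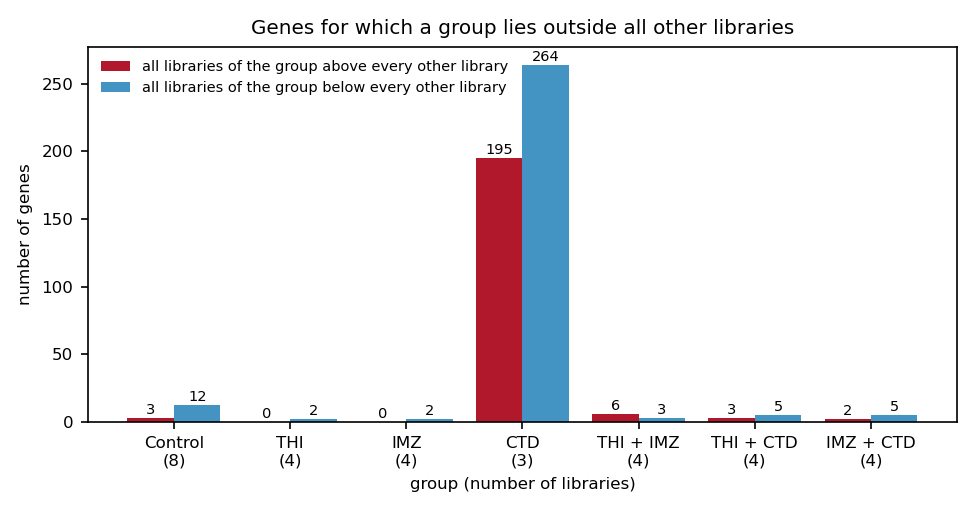
Number of genes (y axis) for which all libraries of a group lay above (red) or below (blue) every library outside the group, for the 7 groups (x axis, number of libraries in brackets), among genes with a mean log2 CPM above 0. The CTD bars reach 195 and 264, and no other group exceeds 12 in either direction.

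Between IMZ + CTD and CTD, 1100 genes were differentially expressed (DEGs, adjusted p below 0.05), which is 5.53% of the genes tested. Of these, 563 (2.83%) were higher and 537 (2.70%) lower in the mixture. Among the 11297 genes with a mean log2 CPM above 0, 523 were called higher and 508 lower. The shares of 2.83% and 2.70% include little-expressed genes, which gave few calls, and are a low reference for lists of well-expressed genes. They are the reference for every list below, also where only a count is given. An unadjusted p below 0.05 was found for 3718 genes. The even split between directions rests on the scaling: with library totals in place of TMM factors, 273 genes were higher and 897 lower, so that 23.3% of the calls were higher in place of 51.2%, while the median log2 fold change of all genes moved only from 0 to -0.03. In 999 of the 1100 DEGs the 4 mixture rats and the 3 CTD rats did not overlap, as was the case for 13.5% of all genes tested.

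**Figure D2:**
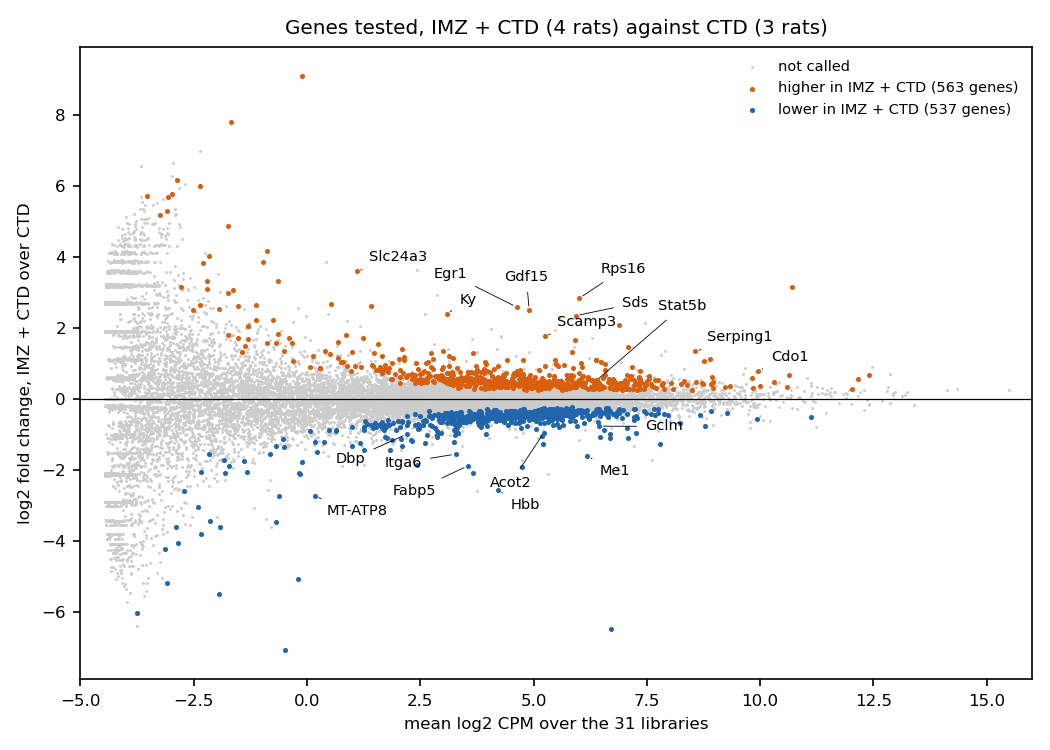
Log2 fold change of IMZ + CTD over CTD (y axis) against mean log2 CPM over the 31 libraries (x axis) for the 19904 genes tested, with 563 genes called higher in orange, 537 called lower in blue and the rest in grey. The named genes are spread over the range of expression, and above a mean log2 CPM of 0 nearly all calls lie between a log2 fold change of -3 and 3.

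In most of these genes the CTD rats as a group, and not the mixture rats, lay outside the control range. Among the 1031 DEGs with a mean log2 CPM above 0, all CTD rats were outside the range of the 8 controls on one side, and the mixture rats not, in 672 genes. The reverse, with the mixture rats alone outside the control range, was seen in 31 genes, while both groups were outside in 25 and neither as a whole in 303. In 363 of the 1031 DEGs (35.2%) the CTD libraries lay outside all other 28 libraries, which was the case for 41.9% of the genes higher in the mixture and 28.3% of those lower. These are positions of the rats and not tests against control. The split by control range was counted only among DEGs, and its shares over all expressed genes are not given as a reference. The CTD group also held fewer rats than the mixture group. A smaller group can lie outside the control range as a whole more readily, and how much of the split that accounts for was not tested.

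The transcripts that separated the groups most sharply were 11 at which the CTD libraries sat below the rest of the series. Most were chosen after their values were seen, since the naming rule takes up only Rps16, Scamp3 and Ndufb7. Scamp3 (ENSRNOG00000048405), a secretory carrier membrane protein, was measured at 45.4, 42.6, 39.8 and 35.9 CPM in IMZ + CTD rats 1 to 4 and at 11.2, 11.9 and 12.6 CPM in CTD rats 1 to 3. It was thus 3.43-fold higher in the mixture (log2 fold change 1.78 ± 0.10 (SE), adjusted p = 2.2e-13), and the other 28 libraries spanned 33.1 to 46.5 CPM. The mixture rats were inside that span and the CTD rats far below it. Rps16 (ENSRNOG00000019578), a protein of the small ribosomal subunit, stood at 75.7, 76.2, 82.9 and 92.5 CPM in the mixture and 20.03, 7.16 and 6.86 CPM in CTD (log2 fold change 2.85 ± 0.26 (SE), adjusted p = 1.6e-08). Reads of ribosomal protein genes can be shared with near-identical copies, so their counts are uncertain.

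Serping1 (ENSRNOG00000007457), the C1 inhibitor of the complement system, followed with 395, 382, 394 and 431 CPM in the mixture rats against 180.1, 148 and 146 CPM in the CTD rats (log2 fold change 1.34 ± 0.11 (SE), adjusted p = 1.5e-09). Idh1, the cytosolic isocitrate dehydrogenase, averaged 531 ± 20.6 CPM (SD, n = 4) in the mixture and 244 ± 19.6 CPM (SD, n = 3) in CTD. Its log2 fold change was 1.12, adjusted p = 1.5e-07. For both genes the mixture lay within or close to the control range, which was 371 to 478 CPM for Serping1 and 432 to 519.6 CPM for Idh1. The remaining members of this set rose by similar amounts. The log2 fold change was 1.11 for Atp6v0c, a subunit of the vacuolar proton pump, 1.23 for the adaptor protein Crkl, 1.31 for the mitochondrial ribosomal protein Mrpl40, 1.36 for the Elongator subunit Elp5, 1.41 for Slc10a7, 1.11 for Tmem260 and 0.99 for Ndufb7, a subunit of respiratory complex I. The calls of these 11 genes held without any 1 of the 7 rats, with adjusted p of at most 9.9e-05. The set was formed from genes in which all 3 CTD libraries lay apart from every other library, the mixture included. Its calls, also those with a rat left out, are thus no separate support.

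The other 2 of the 13, picked in the same way, were higher in CTD than in every other library. MT-ATP8, a mitochondrial subunit of ATP synthase whose reading frame overlaps that of a neighbouring gene, was at 0.769, 0.852, 0.588 and 0.417 CPM in the mixture and 2.73, 4.497 and 6.03 CPM in CTD (log2 fold change -2.74 ± 0.32 (SE), adjusted p = 1.9e-06). The mitochondrial share of the counts differed in the same direction but by less, with means of 0.292% in the mixture and 0.476% in CTD. A gene listed without a symbol, ENSRNOG00000048890, was at 8.18, 6.05, 4.58 and 15.7 CPM in the mixture and 380.2, 1258 and 663 CPM in CTD (log2 fold change -6.48 ± 1.44 (SE), adjusted p = 0.0061), while controls ranged from 2.62 to 229.8 CPM.

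Beyond that set, the largest increases of the mixture over CTD concerned genes of which CTD rats held little. Ky (ENSRNOG00000008210), which encodes a peptidase known from muscle and is among the genes the study singled out, was measured at 11.5, 10.99, 5.47 and 8.64 CPM in the mixture rats and 1.51, 2.197 and 1.48 CPM in the CTD rats. This is a 5.28-fold difference (log2 fold change 2.4 ± 0.40 (SE), adjusted p = 0.00032) between groups that did not overlap. Controls had 11.2 to 32.5 (median 14.2) CPM, so both groups were at or below the lower part of the control range. Gdf15, a stress-induced cytokine, was at 111, 11.1, 22.5 and 34.5 CPM in the mixture and 8.51, 7.73 and 7.32 CPM in CTD (log2 fold change 2.51 ± 0.58 (SE), adjusted p = 0.0083), with IMZ + CTD rat 1 far above the other mixture rats. Slc24a3, a sodium, potassium and calcium exchanger, had 1.38, 3.24, 3.44 and 10.2 CPM against 0.312, 0.749 and 0.0308 CPM (log2 fold change 3.6 ± 1.1 (SE), adjusted p = 0.049), where the lowest CTD library held 1 count. Metallothioneins, metal-binding proteins with near-identical copies, rose as well: Mt1a from 37.03 ± 28.7 CPM in CTD to 157 ± 82.2 CPM in the mixture (SD, n = 3 and n = 4; log2 fold change 2.08, adjusted p = 0.043) and the gene listed as MT1 by a log2 fold change of 2.68, adjusted p = 0.026. Fam198a had a log2 fold change of 1.8, adjusted p = 0.026. Egr1 and Sds, which are also among the leading 10, are described with their lists. Ky was called whichever rat was left out. Gdf15 did not pass the test without IMZ + CTD rat 1 (adjusted p = 0.070). Slc24a3 lost its call without IMZ + CTD rat 2, 3 or 4, or CTD rat 1, 2 or 3 (adjusted p from 0.064 to 0.16). Mt1a was not called without IMZ + CTD rat 3 or 4, or CTD rat 1 or 3 (adjusted p from 0.086 to 0.18). MT1 did not pass the test without IMZ + CTD rat 3 or 4, or CTD rat 1 or 3 (adjusted p from 0.067 to 0.12). Fam198a lost its call without IMZ + CTD rat 2, or CTD rat 1 or 2 (adjusted p from 0.11 to 0.14).

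At the lower end stood haemoglobins, described below with the markers of blood, and genes of growth, adhesion and lipid handling. Fabp5, a fatty acid carrier, was at 6.21, 8.402, 9.55 and 6.74 CPM in the mixture and 21.5, 46.3 and 17.6 CPM in CTD (log2 fold change -1.88 ± 0.50 (SE), adjusted p = 0.022), with the 3 CTD rats above all controls (3.23 to 16.4 CPM). Itga6, the integrin alpha 6 chain, was at 8.705, 6.36, 7.02 and 5.43 CPM against 21.6, 15.7 and 23.3 CPM (log2 fold change -1.55 ± 0.41 (SE), adjusted p = 0.021). Traf1, an adaptor of tumour necrosis factor receptors, had a log2 fold change of -1.86, adjusted p = 0.026, and Prrg4, a membrane protein with a vitamin K-dependent domain, one of -1.43, adjusted p = 0.046. Me1, the malic enzyme that supplies NADPH for lipid synthesis, was at 51.1, 48.2, 54.05 and 38.9 CPM in the mixture and 101, 281 and 59.8 CPM in CTD (log2 fold change -1.61 ± 0.39 (SE), adjusted p = 0.012), and most of this gap came from CTD rat 2. Me1 was not called without CTD rat 2 (adjusted p = 0.32). Fabp5 did not pass the test without IMZ + CTD rat 1 or 4, or CTD rat 2 (adjusted p from 0.058 to 0.18). Itga6 lost its call without IMZ + CTD rat 2 or 4, or CTD rat 1 or 3 (adjusted p from 0.054 to 0.065). Traf1 was not called without IMZ + CTD rat 1 or 2, or CTD rat 3 (adjusted p from 0.070 to 0.17). Prrg4 did not pass the test without IMZ + CTD rat 1, 2, 3 or 4, or CTD rat 1 or 2 (adjusted p from 0.064 to 0.16).

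Of 21 drug metabolism genes that are targets of CAR and PXR, 2 were called lower in the mixture than in CTD (9.52%, against 2.70% of all genes), none higher and 19 neither. The log2 fold change was below 0 in 17 of the 21, with a median of -0.28 against 0 over all genes. Cyp2b1 and Cyp2b2 are the standard readout of CAR in rat liver, and reads of these near-identical genes may be split between them. Cyp2b2 (ENSRNOG00000020775) stood at 93.8, 66.7, 82.5 and 63.4 CPM in the mixture rats, 117, 421 and 212 CPM in the CTD rats and 1.51 to 12.1 (median 4.702) CPM in controls. Every mixture rat was below every CTD rat and above every control, and the difference between the treatments missed the threshold (log2 fold change -1.71 ± 0.53 (SE), adjusted p = 0.052). Cyp2b1 was at 55.6, 8.12, 6.23 and 4.62 CPM and 13.99, 179 and 20.9 CPM, with overlapping groups and a log2 fold change of -1.93, adjusted p = 0.23. Without CTD rat 2 the log2 fold change of Cyp2b1 changed sign to 0.10 and was not called. Without IMZ + CTD rat 1 it was -3.49 and passed the test (adjusted p = 0.032). The transporter Abcc3 and the aldehyde dehydrogenase Aldh1a1, both induced by CAR activators, had log2 fold changes of -0.53, adjusted p = 0.34 and -0.53, adjusted p = 0.37.

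The called members were Abcb1a, the drug efflux pump P-glycoprotein, and Aldh1a7. Abcb1a (ENSRNOG00000008012) was at 29.3, 24.5, 27.7 and 29 CPM in the mixture and 55.04, 55.1 and 27.2 CPM in CTD (log2 fold change -0.73 ± 0.21 (SE), adjusted p = 0.037). CTD rat 3 lay among the mixture rats, and the mixture rats were at or below the lower edge of the control range of 28.7 to 39.3 CPM. Aldh1a7, a close copy of Aldh1a1, was at 0.308, 0.624, 0.529 and 0.4495 CPM and 1.01, 3.696 and 1.54 CPM (log2 fold change -2.12 ± 0.50 (SE), adjusted p = 0.0093). Por, the reductase that passes electrons to all microsomal P450 enzymes and chosen here after its values were seen, was at 107, 96.97, 121 and 82.3 CPM in the mixture, 91.6, 147 and 69.2 CPM in CTD and 113 to 165 CPM in controls (log2 fold change -0.01, adjusted p = 1.00). Abcb1a lost its call without IMZ + CTD rat 1, 2, 3 or 4, or CTD rat 1 or 2 (adjusted p from 0.059 to 0.20). Aldh1a7 was not called without CTD rat 2 (adjusted p = 0.14).

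Targets of NRF2, the factor that answers oxidative and electrophile stress, showed a clearer case in Gclm. Among 15 targets tested, Gclm and Me1 were called lower (13.3%, against 2.70% of all genes) and none higher, at a median log2 fold change of -0.41. Gclm (ENSRNOG00000013409), the regulatory subunit of the enzyme that starts glutathione synthesis, was at 72.7, 75.9, 79.2 and 73.7 CPM in the mixture rats and 145, 145 and 93.98 CPM in the CTD rats. It was 1.698-fold lower in the mixture (log2 fold change -0.76 ± 0.13 (SE), adjusted p = 0.00029), and the mixture rats were just above the control range of 57.3 to 70.1 CPM. The catalytic subunit Gclc was at 77.1 to 107 CPM and 89.9 to 150 CPM with a log2 fold change of -0.47, adjusted p = 0.17, and Txnrd1, thioredoxin reductase, had a log2 fold change of -0.41, adjusted p = 0.13. The call of Gclm held without any 1 rat, with adjusted p of at most 0.0065.

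Other enzymes and carriers of xenobiotics gave few calls. Of 18 glutathione S-transferases 1 was called higher, Gsto2, at 0.353 to 0.492 CPM in the mixture and 0.1301 to 0.181 CPM in CTD (log2 fold change 1.5, adjusted p = 0.028). Of 22 genes of glucuronidation and sulfation 1 was called lower, the sulfotransferase Sult1b1, at 248, 253, 215 and 251 CPM and 312, 299 and 369 CPM (log2 fold change -0.44, adjusted p = 0.022), with the CTD rats above all controls (159 to 253 CPM). None of 8 Cyp2c genes, 6 targets of the dioxin receptor AHR and 8 uptake transporters was called. With an unadjusted p below 0.05 there were 1, 1 and 4 of these. Gsto2 did not pass the test without IMZ + CTD rat 1, 2 or 3, or CTD rat 1, 2 or 3 (adjusted p from 0.054 to 0.11). Sult1b1 lost its call without IMZ + CTD rat 3, or CTD rat 3 (adjusted p from 0.076 to 0.12).

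**Figure D3:**
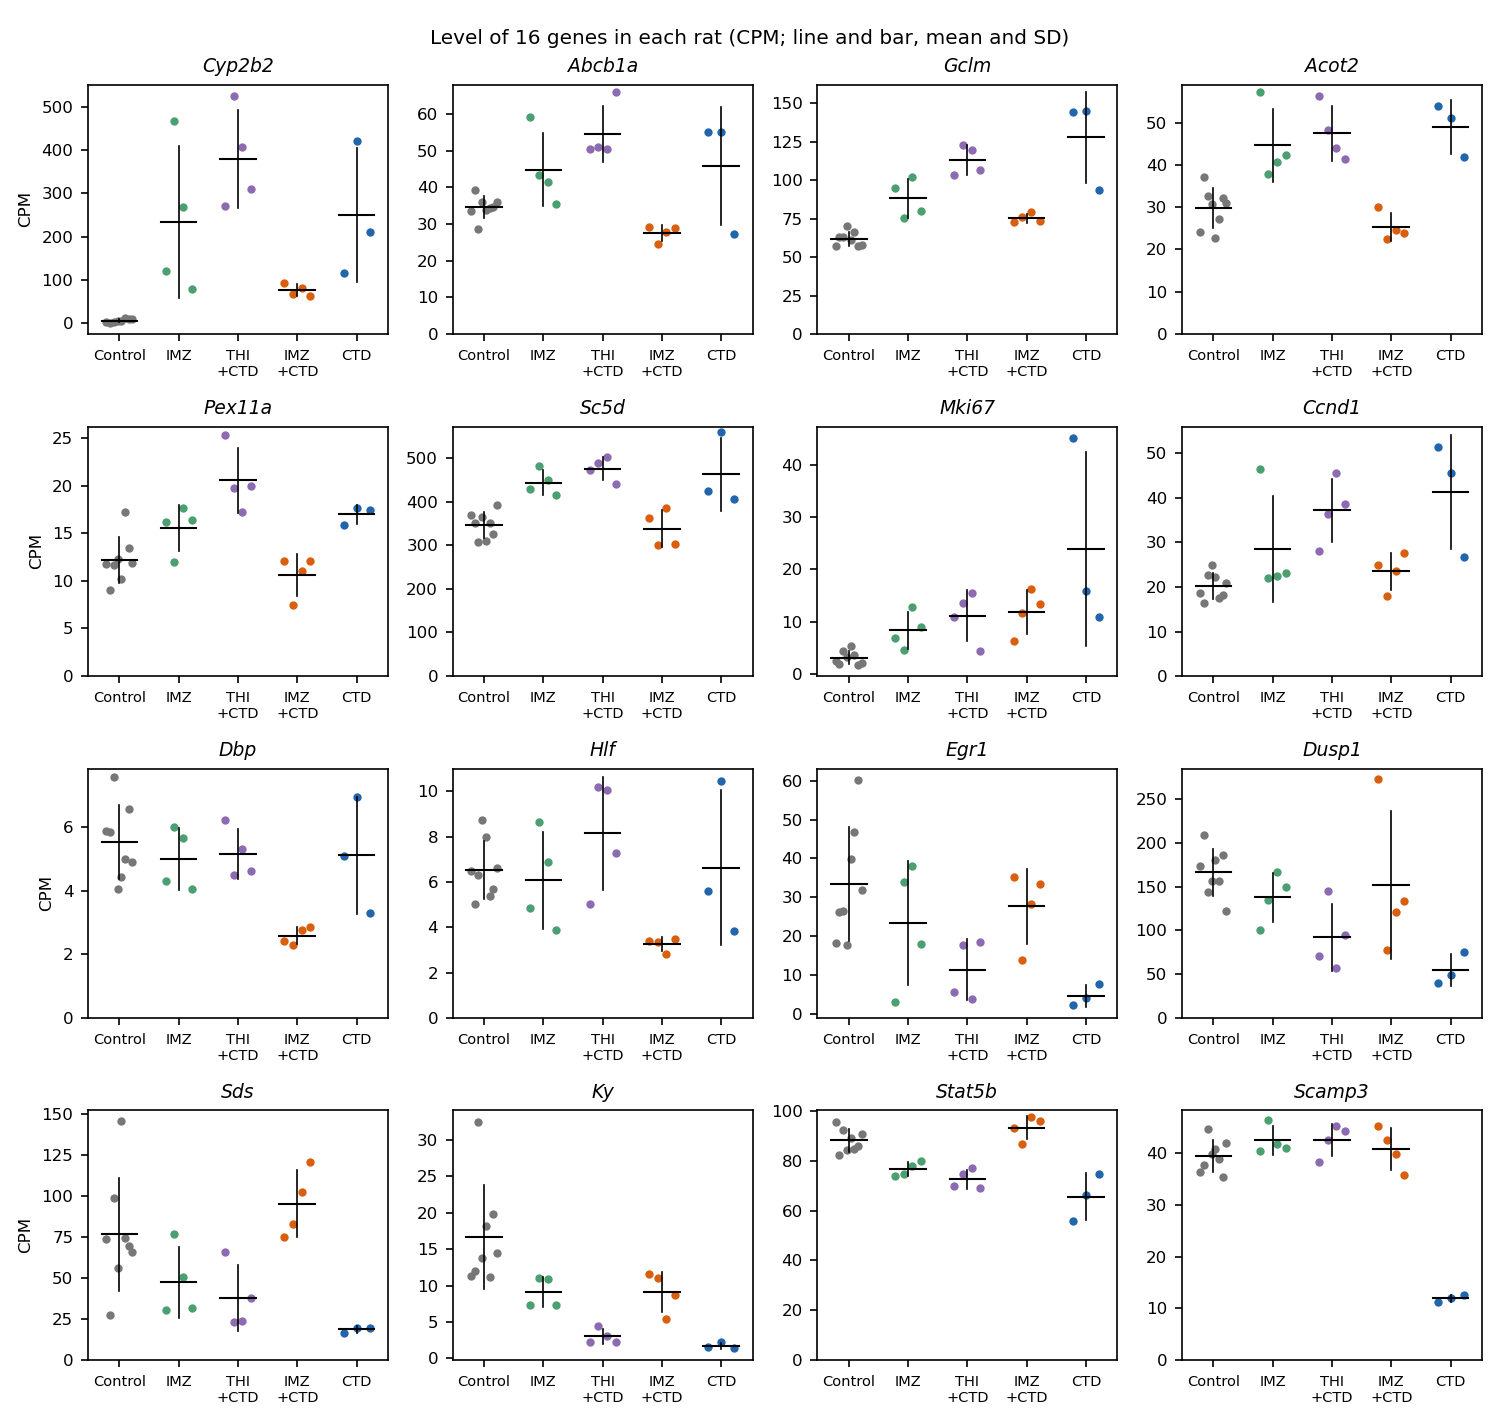
CPM (y axis) of 16 genes in each control, IMZ, THI + CTD, IMZ + CTD and CTD rat (points), with the group mean (line) and SD (bar). Cyp2b2, Gclm, Acot2, Dbp and Hlf are lower in every IMZ + CTD rat than in every CTD rat, Sds, Ky, Egr1 and Stat5b are higher, and Scamp3 sets the 3 CTD rats alone apart from the rest.

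Genes of cell division stood above control in both groups, and the test called no difference between them. The list's median against the control mean was 1.33 to 2.80 (log2) in the mixture rats, 2.09 to 3.89 in the CTD rats and -0.51 to 0.70 in controls. None of 34 genes tested was called, 3 had an unadjusted p below 0.05, and the median log2 fold change was -0.59, with 33 of 34 below 0. That median rested on CTD rat 1 and was 0.13 without it. Mki67, the proliferation marker Ki-67, was at 6.27, 11.7, 16.3 and 13.4 CPM in the mixture rats and 45.2, 15.8 and 10.9 CPM in the CTD rats, with controls at 1.74 to 5.398 (median 2.87) CPM (log2 fold change -1.01 ± 0.50 (SE), adjusted p = 0.27). CTD rats 2 and 3 were among the mixture rats, and all 7 were above every control. The topoisomerase Top2a was at 8.24, 13.4, 21.6 and 17.98 CPM and 57.8, 18.6 and 16.5 CPM (log2 fold change -1.02, adjusted p = 0.30), with CTD rats 2 and 3 again among the mixture rats. The mitotic kinase Cdk1 and its partner cyclin Ccnb1 had log2 fold changes of -0.58, adjusted p = 0.56 and -0.27, adjusted p = 0.91, which turned to 0.24 and 0.41 without CTD rat 1.

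Promoters of Mki67, Top2a and Cdk1 are printed because the list moved as a block from rat to rat. They were chosen because they hold the letters of the cell cycle homology region (CHR, TTTGAA or TTCGAA) and the CCAAT box (CCAAT) through which many mitotic genes are known to be switched. The 250 bases before the start site are given from RefSeq (assembly GRCr8), on the gene's own strand, with matches to either motif on either strand in capitals. The last base of one match can be the first of the next, as at the end of the second CHR of Mki67.
Mki67, chr1:199952594-199952843, minus strand: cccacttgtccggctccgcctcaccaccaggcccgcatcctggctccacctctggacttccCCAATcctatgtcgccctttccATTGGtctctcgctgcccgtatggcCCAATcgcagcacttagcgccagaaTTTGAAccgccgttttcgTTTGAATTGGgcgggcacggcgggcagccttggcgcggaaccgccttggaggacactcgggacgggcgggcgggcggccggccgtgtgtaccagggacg
Top2a, chr10:84473094-84473343, minus strand: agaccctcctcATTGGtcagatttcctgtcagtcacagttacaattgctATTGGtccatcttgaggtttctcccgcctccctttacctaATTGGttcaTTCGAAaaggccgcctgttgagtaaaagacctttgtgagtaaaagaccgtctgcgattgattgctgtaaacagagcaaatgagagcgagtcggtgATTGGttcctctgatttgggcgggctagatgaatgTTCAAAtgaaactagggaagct
Cdk1, chr20:19265043-19265292, plus strand: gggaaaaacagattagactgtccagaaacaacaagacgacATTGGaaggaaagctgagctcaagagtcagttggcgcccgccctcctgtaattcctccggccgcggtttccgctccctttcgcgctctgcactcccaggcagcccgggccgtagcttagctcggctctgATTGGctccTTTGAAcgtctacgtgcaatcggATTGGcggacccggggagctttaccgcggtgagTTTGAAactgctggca
Each of the 3 holds 2 CHR matches, with 4 CCAAT boxes in Mki67 and Top2a and 3 in Cdk1, while the promoter of Ccnb1 holds no CHR match and 2 CCAAT boxes. Of the 34 genes, 28 had a promoter in the table, counted over the window of 250 bases before to 50 after the start. A CHR stood in 19 of the 28 (67.9%), against 19.7% of all 33469 promoters, and a CCAAT box in 21 (75.0%), against 37.5%. Both stood in 16 (57.1%), against 7.95% of all. A gene was counted if any of its promoters held the motif, while the shares of all are per promoter, so the units differ. These are matches of letters, not measured sites.

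Genes of DNA replication and of the step into it gave a few calls. Of 36 replication genes 1 was called lower (2.78%, close to the 2.70% of all genes), Mcm6, a part of the replicative helicase, at 5.78, 6.27, 7.61 and 7.77 CPM in the mixture and 27.2, 10.5 and 10.5 CPM in CTD (log2 fold change -1.23 ± 0.37 (SE), adjusted p = 0.046). Pcna, the sliding clamp of DNA polymerase, was at 15.4, 16.2, 19.5 and 20.1 CPM and 34, 23 and 18.6 CPM and did not pass (log2 fold change -0.50, adjusted p = 0.054). Mcm2, Mcm5 and Rrm2, the last a subunit of ribonucleotide reductase, had log2 fold changes of -0.43, -0.89 and -1.0, none of them called. The list's median was -0.44 and was -0.08 without CTD rat 1. Among 17 cyclins, kinases and E2F factors of the G1 phase, 3 were called lower (17.6%, against 2.70% of all genes) and 1 higher (5.88%, against 2.83%). The list's median was -0.57 and was -0.17 without CTD rat 1. Ccnd1 (ENSRNOG00000020918), cyclin D1, was at 24.9, 17.9, 23.5 and 27.6 CPM in the mixture and 51.4, 45.7 and 26.8 CPM in CTD (log2 fold change -0.82 ± 0.23 (SE), adjusted p = 0.030), with CTD rat 3 among the mixture rats and the controls at 16.5 to 24.9 CPM.

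Cyclin E2, Ccne2, was at 1.02, 1.02, 1.03 and 1.702 CPM against 5.49, 2.56 and 1.94 CPM (log2 fold change -1.48, adjusted p = 0.033). The retinoblastoma gene Rb1 had a log2 fold change of -0.63, adjusted p = 0.026, and Cdk4, the kinase partner of cyclin D, one of 0.25, adjusted p = 0.047. Of 29 genes of DNA damage signalling and repair 1 was called lower (3.45%, close to the 2.70% of all genes). The list's median was -0.43 and was 0.08 without CTD rat 1. The called gene was the checkpoint kinase Atr, with 10.4, 12.2, 10.6 and 11.2 CPM in the mixture against 19.04, 15.6 and 14.9 CPM in CTD (log2 fold change -0.58, adjusted p = 0.0044). Its CTD rats were above every other library. Mcm6 was not called without IMZ + CTD rat 1, 2, 3 or 4, or CTD rat 1 (adjusted p from 0.070 to 0.46). Ccnd1 did not pass the test without IMZ + CTD rat 1, 2 or 3, or CTD rat 1 or 2 (adjusted p from 0.050 to 0.19). Ccne2 lost its call without IMZ + CTD rat 1, 2 or 3, or CTD rat 1 (adjusted p from 0.080 to 0.31). Rb1 was not called without IMZ + CTD rat 1 or 2, or CTD rat 1 or 2 (adjusted p from 0.068 to 0.23). Cdk4 did not pass the test without IMZ + CTD rat 1, 2, 3 or 4, or CTD rat 1, 2 or 3 (adjusted p from 0.054 to 0.19). Atr lost its call without CTD rat 1 (adjusted p = 0.055). Of 20 targets of p53, 2 were called higher (10%, against 2.83% of all genes) and none lower, at a median of -0.12. The called ones were Gdf15 and Btg2, an inhibitor of proliferation (log2 fold change 1.1, adjusted p = 0.042). The classical targets Cdkn1a and Mdm2 had log2 fold changes of -0.36, adjusted p = 0.54 and -0.26, adjusted p = 0.43. Btg2 was not called without IMZ + CTD rat 1 or 4, or CTD rat 1, 2 or 3 (adjusted p from 0.051 to 0.19).

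PPAR alpha is the receptor that directs fatty acid oxidation in liver. Of 27 of its targets tested, 6 were called lower in the mixture and none higher, which is 22.2% against 2.70% of all genes, and the median log2 fold change was -0.27. In 12 members every mixture rat was below every CTD rat, and in 1 above, against 6.51% and 7.02% of all genes tested. Acot2 (ENSRNOG00000010134), a mitochondrial acyl-CoA thioesterase, was at 30.1, 22.4, 24.5 and 24.02 CPM in the mixture and 53.9, 51.04 and 41.8 CPM in CTD, 1.94-fold apart (log2 fold change -0.95 ± 0.20 (SE), adjusted p = 0.0036). The mixture rats fell in or next to the control range of 22.6 to 37.2 CPM and the CTD rats above it. Pdk4, the kinase that shuts off pyruvate oxidation, was at 111, 89.5, 99.7 and 102 CPM against 158, 199 and 169.9 CPM (log2 fold change -0.81 ± 0.21 (SE), adjusted p = 0.017), and here it was the mixture that lay below the controls (126 to 171 CPM).

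Pex11a, which divides peroxisomes, was at 12.1, 7.44, 11.1 and 12.1 CPM in the mixture and 15.9, 17.7 and 17.5 CPM in CTD (log2 fold change -0.67, adjusted p = 0.029). The enzymes of beta-oxidation Acadl, Hadhb and Decr1 fell by less, with log2 fold changes of -0.42, -0.39 and -0.53. Cyp4a1, the fatty acid hydroxylase most used as a readout of this receptor, was at 84.1, 83.8, 73.2 and 97.2 CPM and 96.7, 113 and 110.3 CPM with overlapping groups, and was not called (log2 fold change -0.33, adjusted p = 0.19). Chosen after their values were seen, the thioesterase Acot3 (log2 fold change -0.79, adjusted p = 0.0079) and the peroxisomal transporter Abcd3 (log2 fold change -0.67, adjusted p = 0.0044) were lower in the mixture too. Acot2 and Acot3 were called without any 1 rat. Pdk4 was not called without IMZ + CTD rat 2, or CTD rat 2 (adjusted p from 0.050 to 0.089). Pex11a did not pass the test without IMZ + CTD rat 2 or 3, or CTD rat 1, 2 or 3 (adjusted p from 0.055 to 0.11). Acadl lost its call without IMZ + CTD rat 3, or CTD rat 1 or 2 (adjusted p from 0.064 to 0.074). Hadhb was not called without IMZ + CTD rat 1 or 3, or CTD rat 1 or 2 (adjusted p from 0.057 to 0.11). Decr1 did not pass the test without IMZ + CTD rat 1, 2, 3 or 4, or CTD rat 2 or 3 (adjusted p from 0.050 to 0.19). Abcd3 lost its call without CTD rat 2 (adjusted p = 0.068). The list kept 1 to 5 calls when rats were left out, with a median between -0.31 and -0.22.

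Cholesterol synthesis is the pathway closest to the fungal target of IMZ. Cyp51, the demethylase gene of this pathway, was on the list but was not matched and not analysed. Of 25 genes tested, 2 were called lower (8%, against 2.70% of all genes) and 1 higher (4%, against 2.83%). A log2 fold change below 0 was found in 22 of 25, at a median of -0.29. Sc5d, a sterol desaturase, had 363, 301, 387 and 302 CPM in the mixture against 425, 559 and 406 CPM in CTD (log2 fold change -0.45, adjusted p = 0.033), and Tm7sf2, a sterol reductase, was higher in the mixture with 420.2, 436, 412 and 429 CPM against 298, 334 and 322 CPM (log2 fold change 0.42, adjusted p = 0.037). Squalene epoxidase Sqle, driven by low sterol, was not called (log2 fold change -0.44, adjusted p = 0.54). Sc5d lost its call without IMZ + CTD rat 2 or 4, or CTD rat 2 (adjusted p from 0.090 to 0.26). Tm7sf2 was not called without IMZ + CTD rat 1, 2, 3 or 4, or CTD rat 1, 2 or 3 (adjusted p from 0.060 to 0.15). None of 19 genes of bile acid synthesis and transport was called (3 with an unadjusted p below 0.05), and of 22 lipogenic genes Me1 was the 1 called.

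In liver, Dbp, Hlf and Tef are output factors that rise and fall each day together with the Per genes. Of 12 genes that peak in phase with Dbp, 3 were called lower (25%, against 2.70% of all genes) and none higher, at a median of -0.82. Per rat, the median of the list against the control mean was between -1.08 and -0.87 in the mixture, at -1.06 in CTD rat 3 and at -0.24 and 0.23 in the other CTD rats, and between -0.21 and 0.14 in controls. CTD rat 3 thus sat with the mixture, and without CTD rat 2 the median was -0.47 with no call left. Dbp (ENSRNOG00000021027) was at 2.43, 2.299, 2.76 and 2.86 CPM in the mixture and 5.098, 6.95 and 3.29 CPM in CTD (log2 fold change -0.99 ± 0.22 (SE), adjusted p = 0.0053), and all 4 mixture rats were below the other 27 libraries, which spanned 3.09 to 7.58 CPM.

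Hlf, a close relative of Dbp, was at 3.38, 3.35, 2.82 and 3.5 CPM in the mixture and 5.59, 10.4 and 3.85 CPM in CTD (log2 fold change -1.03 ± 0.28 (SE), adjusted p = 0.028), again with every mixture rat below all 27 others (3.85 to 10.4 CPM). Wee1, a clock-controlled kinase that holds back mitosis, was at 2.61, 3.15, 3.79 and 5.75 CPM against 12.02, 11.03 and 2.83 CPM (log2 fold change -1.18, adjusted p = 0.030), with CTD rat 3 among the mixture rats. Usp2, a deubiquitinase with a strong daily rhythm, missed the threshold at 5.91, 2.33, 4.41 and 2.92 CPM and 9.29, 14.4 and 5.54 CPM (log2 fold change -1.33, adjusted p = 0.058). Per1 and Nr1d1, core parts of the clock loop, had log2 fold changes of -0.42, adjusted p = 0.52 and 1.24, adjusted p = 0.42. In the opposite phase, 1 of 4 genes was called, the repressor Cry1, lower in the mixture with 24.4, 17.9, 25.2 and 20.8 CPM against 36.4, 54.9 and 27.8 CPM (log2 fold change -0.85, adjusted p = 0.017). None of 6 other clock genes was called, 1 of them with an unadjusted p below 0.05. Dbp did not pass the test without CTD rat 2 (adjusted p = 0.083). Hlf lost its call without IMZ + CTD rat 1, 2 or 3, or CTD rat 2 (adjusted p from 0.053 to 0.36). Wee1 was not called without IMZ + CTD rat 1, 2 or 3, or CTD rat 1 or 2 (adjusted p from 0.066 to 0.20). Cry1 did not pass the test without IMZ + CTD rat 2, or CTD rat 2 (adjusted p from 0.060 to 0.21). The time of day at which each liver was taken was not used here, and its part in these values was not tested.

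Of the 12 Dbp-phase genes 9 had an entry in the promoter table, not Hlf and not Wee1. An E-box (CACGTG), the letters bound by the clock factors, stood in 4 of these 9, Bhlhe40, Bhlhe41, Nr1d1 and Tef (44.4%), against 6.42% of all promoters. A D-box (TTATGTAA), the letters bound by Dbp and its relatives, stood in 1, Per2 (11.1%), against 0.893%. These windows say nothing of sites further away.

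Immediate early genes are those that cells switch on within minutes of a stimulus. Of 17 tested, 2 were called higher in the mixture (11.8%, against 2.83% of all genes) and none lower, at a median of 0.52. The list's median against the control mean was between -0.39 and -0.14 in the mixture rats, between -0.94 and -0.84 in the CTD rats and between -0.34 and 0.47 in controls. Egr1 (ENSRNOG00000019422) was at 35.2, 13.9, 28.2 and 33.6 CPM in the mixture and 2.24, 4.03 and 7.598 CPM in CTD (log2 fold change 2.59 ± 0.65 (SE), adjusted p = 0.016), a 6.04-fold difference, and controls spanned 17.7 to 60.2 CPM. Jun was at 103, 38.8, 53.8 and 62.4 CPM against 16.8, 17.5 and 27.1 CPM (log2 fold change 1.66 ± 0.48 (SE), adjusted p = 0.036). Every mixture rat was above every CTD rat for both genes. Fos and Ier2 had the same order without passing the test, with log2 fold changes of 1.02, adjusted p = 0.49 and 0.52, adjusted p = 0.41.

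Dusp1, a phosphatase that switches off stress kinases and answers to glucocorticoids, was at 273, 77.9, 121 and 133 CPM in the mixture and 39.95, 49.6 and 75.3 CPM in CTD (log2 fold change 1.46 ± 0.32 (SE), adjusted p = 0.0056). Of 10 glucocorticoid targets it and Mt1a were the 2 called, both higher (20%, against 2.83% of all genes), at a median of 0.00. Of 22 genes of the endoplasmic reticulum and integrated stress responses, Ppp1r15a, the phosphatase subunit that ends the translation block, was called higher (log2 fold change 0.98, adjusted p = 0.040) and the asparagine synthetase Asns lower, at 0.308, 0.994, 1.09 and 0.546 CPM against 3.36, 2.22 and 1.94 CPM (log2 fold change -1.76, adjusted p = 0.026). Of 10 heat shock genes 2 were called lower (20%, against 2.70% of all genes), the chaperones Hsp90aa1 and Hsph1. Hsp90aa1 was at 146, 128, 152 and 116 CPM against 358, 267 and 351 CPM (log2 fold change -1.26, adjusted p = 0.015). Hsph1 had a log2 fold change of -1.06, adjusted p = 0.021. For both, CTD rats were inside the control range and the mixture rats in its lower part or below. Egr1 lost its call without CTD rat 1 or 2 (adjusted p from 0.070 to 0.096). Jun was not called without IMZ + CTD rat 1 or 4, or CTD rat 1 or 2 (adjusted p from 0.059 to 0.14). Dusp1 did not pass the test without CTD rat 1 (adjusted p = 0.052). Ppp1r15a lost its call without IMZ + CTD rat 1, 3 or 4, or CTD rat 1, 2 or 3 (adjusted p from 0.075 to 0.16). Asns was not called without IMZ + CTD rat 1 or 4, or CTD rat 1 (adjusted p from 0.073 to 0.13). Hsp90aa1 did not pass the test without CTD rat 1 (adjusted p = 0.058). Hsph1 lost its call without IMZ + CTD rat 3 or 4, or CTD rat 1 (adjusted p from 0.061 to 0.088).

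**Figure D4:**
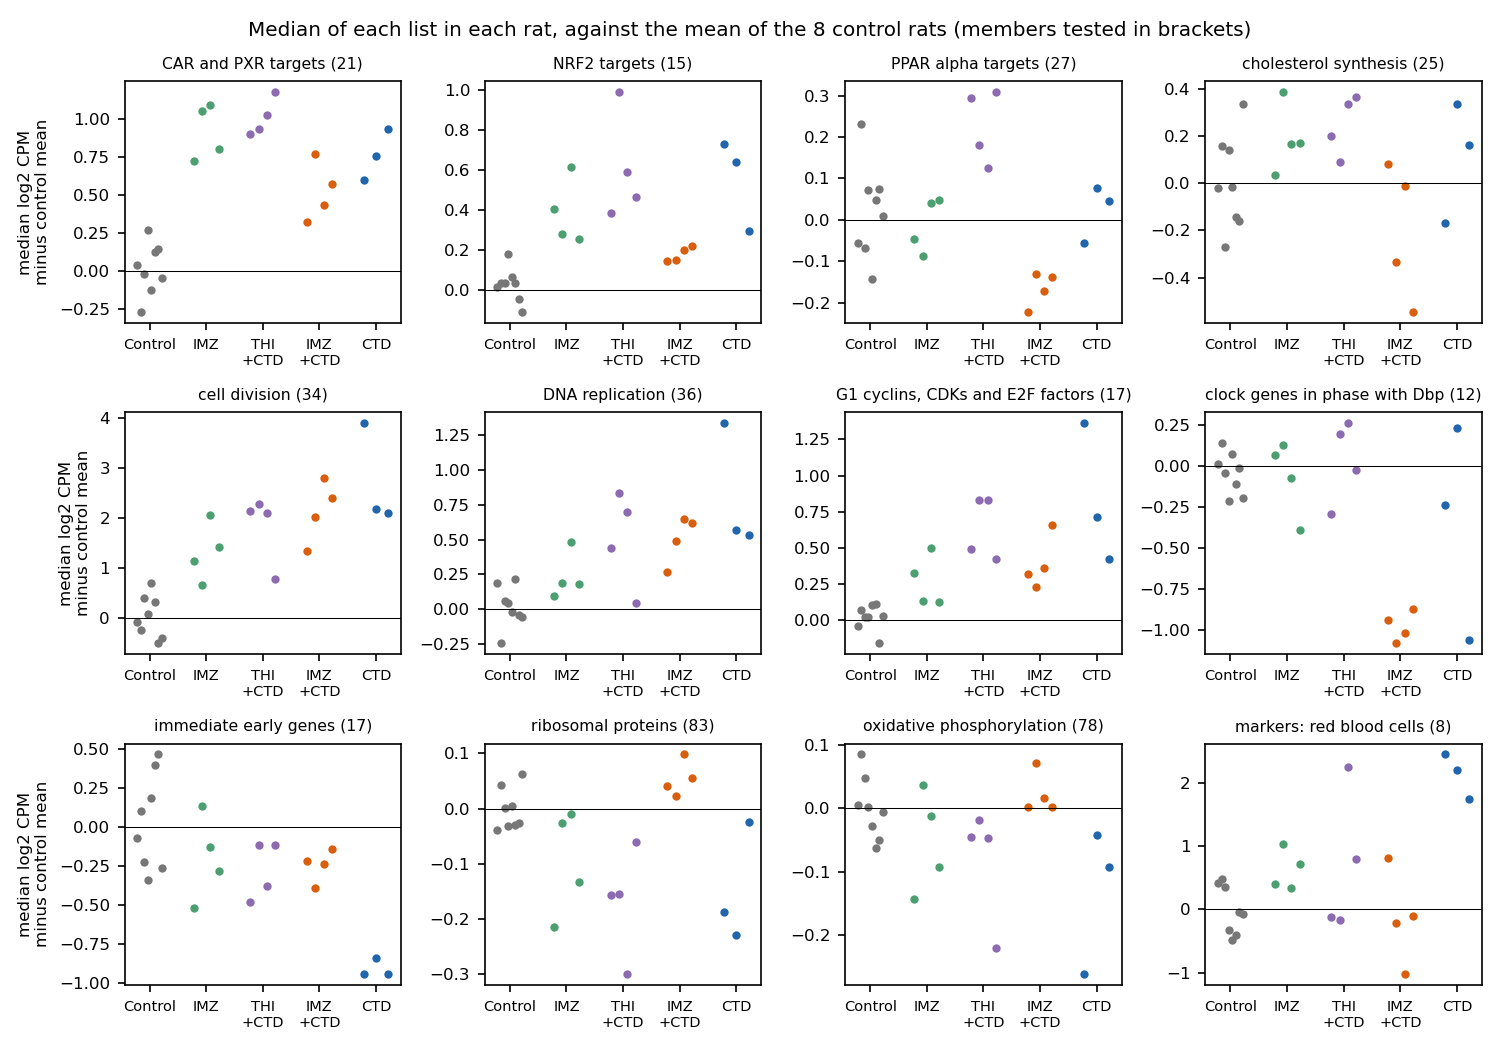
Median over a list's members of log2 CPM minus the mean of the 8 controls (y axis) in each control, IMZ, THI + CTD, IMZ + CTD and CTD rat (points) for 12 lists. Clock genes in phase with Dbp lie near -1 in the 4 mixture rats and in CTD rat 3, the cell division median of CTD rat 1 reaches 3.89, and the immediate early genes of the 3 CTD rats lie below all other rats shown.

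Single genes of amino acid and glucose metabolism were higher in the mixture. Of 15 genes of gluconeogenesis and fasting 3 were called higher (20%, against 2.83% of all genes) and none lower, at a median of 0.34, with 14 of 15 above 0. Sds (ENSRNOG00000001388), the serine dehydratase that feeds gluconeogenesis, was at 75.2, 82.9, 103 and 121 CPM in the mixture and 16.5, 19.8 and 19.8 CPM in CTD (log2 fold change 2.35 ± 0.55 (SE), adjusted p = 0.0091), a 5.105-fold difference with controls at 27.5 to 146 (median 72.04) CPM. Foxo1, the factor that drives gluconeogenic genes in fasting, had a log2 fold change of 0.54, adjusted p = 0.042, and Pc, pyruvate carboxylase, one of 0.34, adjusted p = 0.046. Pck1, the key enzyme of the pathway, overlapped between groups at 2026, 1941, 2506 and 2941 CPM and 2506, 540.1 and 2073 CPM (log2 fold change 0.46, adjusted p = 0.60). Tat, tyrosine aminotransferase, and Igfbp1, an insulin-suppressed binding protein, did not overlap and did not pass, with log2 fold changes of 0.76, adjusted p = 0.098 and 2.13, adjusted p = 0.088.

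Of 13 urea cycle and periportal enzymes 2 were called higher (15.4%, against 2.83% of all genes), Sds and Asl, argininosuccinate lyase (537, 464, 625 and 589.7 CPM against 336, 307 and 433 CPM, log2 fold change 0.63, adjusted p = 0.046). Cdo1 (ENSRNOG00000000158), cysteine dioxygenase, which commits cysteine to taurine and sulfate, was chosen after its values were seen. It was at 1172, 1287, 1155 and 1375 CPM in the mixture and 698, 737 and 723 CPM in CTD, a 1.73-fold difference (log2 fold change 0.79 ± 0.12 (SE), adjusted p = 6.1e-05), and the controls at 838 to 1289 CPM lay between the groups and over the mixture. Tdo2, tryptophan dioxygenase and likewise chosen after its values were seen, was at 715 to 1105 CPM and 491 to 651 CPM and did not pass (log2 fold change 0.72, adjusted p = 0.092). Sds lost its call without CTD rat 1 (adjusted p = 0.052). Foxo1 was not called without IMZ + CTD rat 1, 2 or 3, or CTD rat 1, 2 or 3 (adjusted p from 0.067 to 0.12). Pc did not pass the test without IMZ + CTD rat 1, 2, 3 or 4, or CTD rat 1 or 3 (adjusted p from 0.068 to 0.16). Asl lost its call without IMZ + CTD rat 1, 3 or 4, or CTD rat 1 or 2 (adjusted p from 0.070 to 0.20). Cdo1 was called without any 1 rat.

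Of 13 genes of the growth hormone and STAT5 axis 2 were called higher (15.4%, against 2.83% of all genes), at a median of 0.33. Stat5b (ENSRNOG00000019075), the factor through which growth hormone acts on liver, was at 93.04, 86.9, 97.7 and 95.98 CPM in the mixture and 55.8, 66.4 and 74.6 CPM in CTD (log2 fold change 0.51 ± 0.08 (SE), adjusted p = 0.00024), with controls at 82.5 to 95.8 CPM. Cux2, a female-biased repressor under its control, was at 72.3, 59.5, 56.96 and 67.8 CPM against 37.7, 41.2 and 41.9 CPM (log2 fold change 0.67, adjusted p = 0.0026). The thyroid hormone receptor Thrb was higher in the mixture (log2 fold change 0.45, adjusted p = 0.0061), while Me1 and Sult1b1, the 2 other called genes of the 8 in the thyroid list, were lower. In that list 12.5% were thus higher and 25% lower, against 2.83% and 2.70% of all genes. Stat5b, Cux2 and Thrb were called without any 1 rat, with adjusted p of at most 0.039.

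Of 24 complement and coagulation genes 3 were called, all higher (12.5%, against 2.83% of all genes). They were C8g (log2 fold change 0.51, adjusted p = 0.0074), the contact factor F12 (log2 fold change 0.37, adjusted p = 0.016) and Cfi, the complement factor I protease (log2 fold change 0.30, adjusted p = 0.049), at a list median of 0.14. For C8g and F12 the CTD libraries were below all others. The 15 hepatocyte markers, of which 1 was called, had a median log2 fold change of 0.24, and their part in these values was not tested. Of 15 iron genes 2 were called higher (13.3%, against 2.83% of all genes) and 1 lower (6.67%, against 2.70%). Hpx, hemopexin, which binds free haem, was at 4574, 4605, 5211 and 5449.5 CPM in the mixture and 3041, 3541 and 3426 CPM in CTD (log2 fold change 0.57 ± 0.11 (SE), adjusted p = 0.0015), and Tmprss6, the protease that lowers hepcidin, had a log2 fold change of 0.36, adjusted p = 0.0097. Tfrc, the transferrin receptor, was the 1 called lower, with 40.7, 36.6, 36.4 and 34.9 CPM against 53.2, 77.8 and 54.6 CPM (log2 fold change -0.74, adjusted p = 0.031). None of 17 acute phase genes was called, 5 of them with an unadjusted p below 0.05. Hpx was called without any 1 rat. C8g was not called without CTD rat 1 (adjusted p = 0.053). F12 did not pass the test without CTD rat 1 (adjusted p = 0.076). Cfi lost its call without IMZ + CTD rat 1, 2, 3 or 4, or CTD rat 1, 2 or 3 (adjusted p from 0.058 to 0.15). Tmprss6 was not called without CTD rat 3 (adjusted p = 0.053). Tfrc did not pass the test without IMZ + CTD rat 2, 3 or 4, or CTD rat 2 (adjusted p from 0.065 to 0.21).

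Each of 3 immune lists held 1 call, too few to describe the lists as changed. Of 26 interferon-stimulated genes 1 was called lower (3.85%, against 2.70% of all genes), the RNA sensor Ifih1 (log2 fold change -0.38, adjusted p = 0.039). Of 9 Toll-like receptors and Myd88 1 was called lower (11.1%, against 2.70% of all genes). This was Tlr3, which senses double-stranded RNA, at 25.3, 29.6, 32.7 and 29.8 CPM against 39.9, 44.9 and 44.4 CPM (log2 fold change -0.55, adjusted p = 0.0051). Of 14 antigen presentation genes 1 was called higher (7.14%, against 2.83% of all genes), the peptide transporter Tap2 (log2 fold change 0.94, adjusted p = 0.0072). Tlr3 and Tap2 were called without any 1 rat. Ifih1 lost its call without IMZ + CTD rat 1, 2 or 3, or CTD rat 2 or 3 (adjusted p from 0.053 to 0.24).

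The most numerous calls of any list were in ribosomal proteins, 18 of 83 higher and none lower (21.7% against 2.83% of all genes), at a median of 0.22. Per rat, the list's median against the control mean was between 0.02 and 0.10 in the mixture, between -0.23 and -0.02 in CTD and between -0.04 and 0.06 in controls. Apart from Rps16, the examples were Rps28 with 45.1, 49.2, 49.3 and 43.6 CPM in the mixture and 27.6, 30.5 and 32.02 CPM in CTD (log2 fold change 0.64 ± 0.09 (SE), adjusted p = 2.3e-05), Rps15 (log2 fold change 0.58, adjusted p = 0.00012) and Rpl38 (log2 fold change 0.53, adjusted p = 8.3e-05), which were called without any 1 rat. The number of calls was 9 with library totals as the scaling, where the median was 0.11, and 7 in a fit of only the 2 groups. Leaving out 1 rat gave 9 calls without CTD rat 1 or CTD rat 2, up to 25 without CTD rat 3.

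Nuclear subunits of oxidative phosphorylation showed the same side, with 14 of 78 called higher and none lower (17.9%) at a median of 0.13. In 8 of the 14 the CTD libraries lay outside all others. Cox4i1, of cytochrome c oxidase, was at 264, 268, 281 and 284 CPM in the mixture and 189.7, 191 and 219.9 CPM in CTD (log2 fold change 0.45 ± 0.08 (SE), adjusted p = 0.00030). Atp5j and Atp5j2, of ATP synthase, and Ndufa3, of complex I, had log2 fold changes of 0.54, adjusted p = 0.00038, 0.48, adjusted p = 0.00056 and 0.52, adjusted p = 0.0014. Under library totals 10 members were higher and 3 lower, at a median of 0.04, and without CTD rat 1 there were 8 calls. These changes ran opposite to the share of mitochondrially encoded transcripts, which was higher in CTD. Among 38 proteasome subunits none was called, 15 with an unadjusted p below 0.05.

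**Figure D5:**
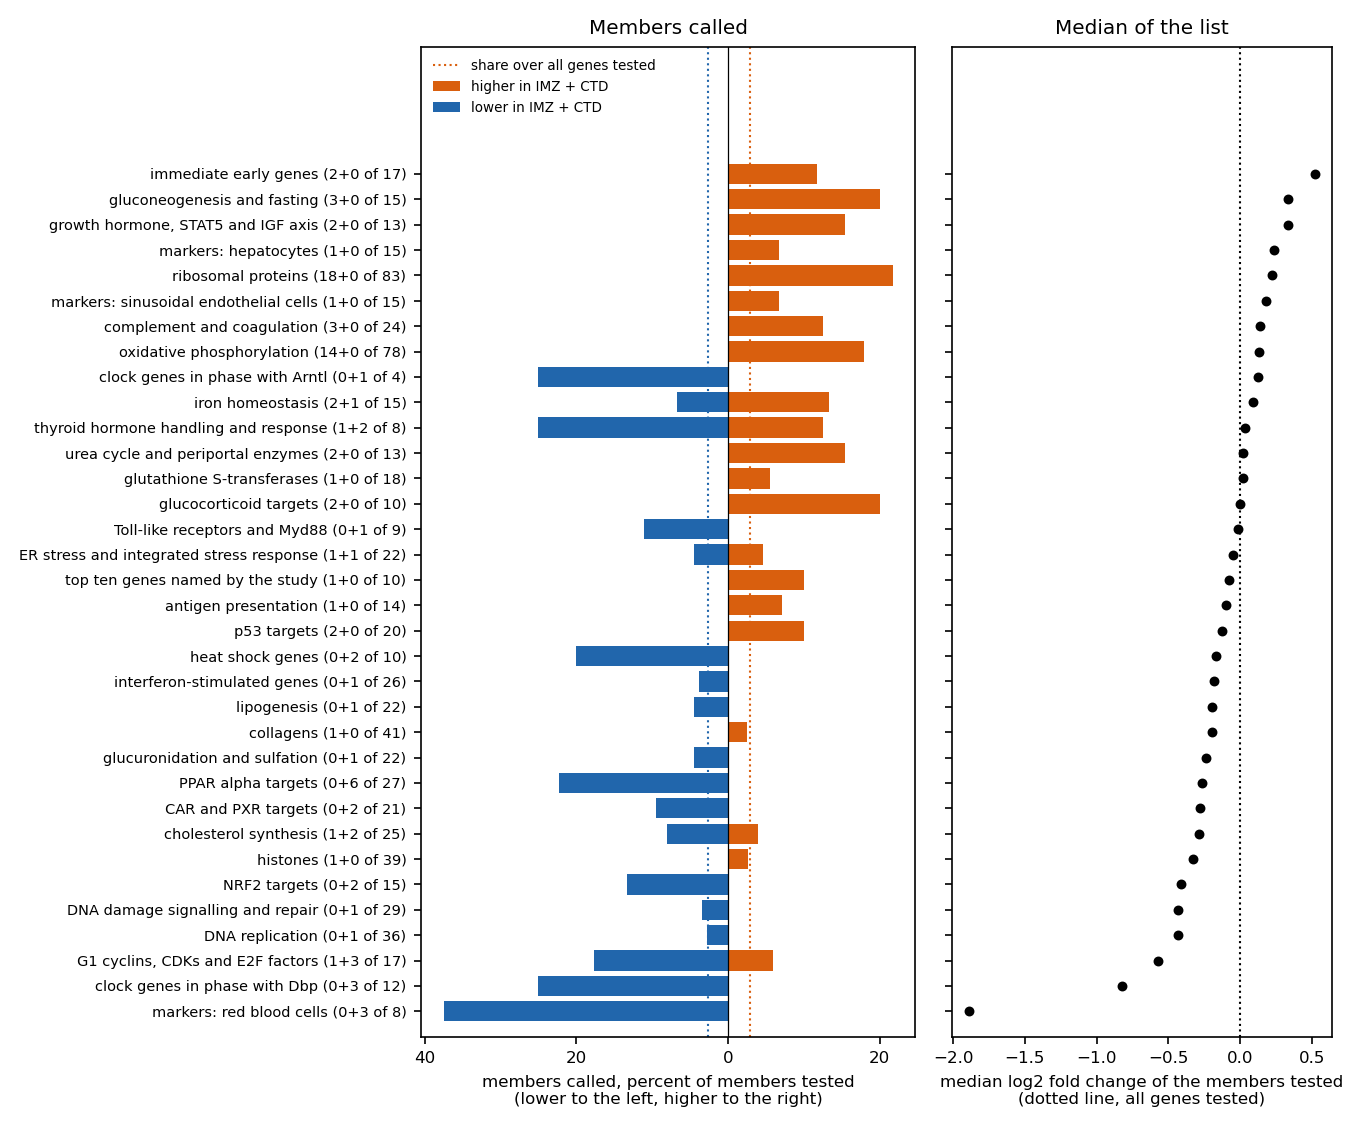
Share of the members tested that were called (left, x axis in percent, lower in blue, higher in orange) and median log2 fold change (right, x axis) for the lists with at least 1 call (y axis, numbers called higher and lower and members tested in brackets). Dotted lines are the shares and the median over all genes tested, and red blood cell markers have the lowest median, -1.89.

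Markers of red blood cells were the cell type list that differed most. Of 8 markers 3 were called lower (37.5%, against 2.70% of all genes) and none higher, at a median of -1.89. Their summed level was 22.2 to 73.7 CPM in the mixture, 160 to 196 CPM in CTD and 28.7 to 70.8 CPM in controls, so the groups did not overlap and CTD was the one away from control. Hbb, the beta chain of haemoglobin, was at 14.3, 3.72, 3.76 and 21.2 CPM in the mixture and 61.5, 69.5 and 60.7 CPM in CTD (log2 fold change -2.58 ± 0.60 (SE), adjusted p = 0.0087). The alpha chains Hba1 and Hba2 had log2 fold changes of -1.92, adjusted p = 0.039 and -2.1, adjusted p = 0.034. Haemoglobin genes exist in near-identical copies, so the split between them is uncertain. The part of blood in the other differences was not tested. Hbb was called without any 1 rat. Hba1 was not called without IMZ + CTD rat 2, 3 or 4, or CTD rat 1 or 2 (adjusted p from 0.073 to 0.12). Hba2 did not pass the test without IMZ + CTD rat 2, 3 or 4, or CTD rat 1 or 2 (adjusted p from 0.072 to 0.10).

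In most other cell types the summed marker levels overlapped. The 15 Kupffer cell and macrophage markers summed to 479 to 816 CPM in the mixture and 499 to 787 CPM in CTD, and 16 of stellate cells and fibroblasts to 565 to 598 CPM and 530 to 705 CPM, with no call in either. For 15 sinusoidal endothelial markers the sums were 691 to 723 CPM and 547 to 672 CPM and did not overlap, and 1 was called higher, Kdr, the receptor of vascular endothelial growth factor, at 92.4, 93.99, 88.2 and 84.4 CPM against 66.9, 55.5 and 63.8 CPM (log2 fold change 0.53, adjusted p = 0.0030). Of 15 hepatocyte markers Apoa2, an apolipoprotein of high-density particles, was called higher (log2 fold change 0.48, adjusted p = 0.021). Their median log2 fold change was 0.24, with 14 of 15 above 0 and 7 at an unadjusted p below 0.05. Per rat, the median of these markers against the control mean was between -0.08 and 0.05 in the mixture and between -0.29 and -0.21 in CTD, where it lay below all controls (-0.04 to 0.10). T and NK cell markers summed to at most 24 CPM in these 7 libraries, with 16 of 23 under 1 CPM in every library, and B and plasma cell markers to at most 13.9 CPM, with 7 of 10 under 1 CPM. Neutrophil markers were at 1.40 CPM or less in sum, with Ltf at 0 in all 7 libraries. Markers of cholangiocytes summed to 13 to 18.3 CPM and 16 to 19.3 CPM. Pancreas markers summed to 79.8 to 211 CPM and 11.7 to 129 CPM, where Pnlip and Ins2 were at 0 in all 7 libraries. None of these last 5 lists had a call. Apoa2 was not called without IMZ + CTD rat 2, or CTD rat 1 or 2 (adjusted p from 0.060 to 0.12). Kdr was called without any 1 rat.

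Matrix and chromatin lists were nearly without calls. Of 41 collagens 1 was called, Col6a5, at 0.461, 0.0852, 0.9404 and 0.128 CPM in the mixture and 0.05202, 0.103 and 0.0308 CPM in CTD (log2 fold change 2.63, adjusted p = 0.040), with overlapping groups and a lowest library count of 1. None of 12 elastic fibre and smooth muscle genes and none of 13 pericentral Wnt targets was called, with 1 and 2 at an unadjusted p below 0.05. Of 39 histones 1 was called, the linker histone Hist1h1d (ENSRNOG00000047459), at 44.3, 71.5, 68.8 and 66.7 CPM against 41.2, 33.5 and 44.6 CPM (log2 fold change 0.66, adjusted p = 0.011), a gene family with near-identical copies. Of the 10 genes that the study singled out as its leading ones, Ky was the 1 called. Col6a5 was not called without IMZ + CTD rat 1 or 3, or CTD rat 1, 2 or 3 (adjusted p from 0.066 to 0.22). Hist1h1d did not pass the test without CTD rat 2 (adjusted p = 0.083).

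A small set of transcripts placed the mixture, and not CTD, outside the whole series. Such sets were also small for THI + CTD (8 genes), THI + IMZ (9), THI (2), IMZ (2) and controls (15), so the mixture does not stand out by their number. All 4 IMZ + CTD rats were outside every other library for 7 of the 11297 genes with a mean log2 CPM above 0. These were Dbp and Hlf, described above, and 5 more, of which Commd7, Oaz1, Syncrip and Lrpprc were chosen after their values were seen and Hadha, of beta-oxidation, lay below all others without being called in the comparison with CTD. Commd7 was at 18.3, 18.5, 16.96 and 17.5 CPM, above the 12.7 to 16.9 CPM of the other 27 libraries (log2 fold change 0.39 ± 0.09 (SE), adjusted p = 0.011). Oaz1, the antizyme that limits polyamine synthesis, was at 275, 299, 277 and 273 CPM, above 187 to 259 CPM elsewhere (log2 fold change 0.44 ± 0.10 (SE), adjusted p = 0.0051). Syncrip, an RNA-binding protein, was at 10.9, 11.4, 11.6 and 9.54 CPM in the mixture and 18.3, 17.7 and 14.7 CPM in CTD (log2 fold change -0.64 ± 0.10 (SE), adjusted p = 0.00011), below the 12.1 to 18.3 CPM of the others. Lrpprc, which stabilises mitochondrial transcripts, was at 129, 123, 136 and 121 CPM, below 139 to 185 CPM (log2 fold change -0.27, adjusted p = 0.040). Commd7, Oaz1 and Syncrip were called without any 1 rat. Genes picked for lying outside all other libraries are already apart from CTD, so these calls are no separate support. Lrpprc lost its call without IMZ + CTD rat 1, 2 or 4, or CTD rat 2 or 3 (adjusted p from 0.065 to 0.13).

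To see which of these differences depended on the partner compound, IMZ + CTD was compared with THI + CTD, given at nearly the same dose of CTD. This contrast shares the mixture rats with the one above and is no independent evidence. Here 35 genes were called, 0.176% of those tested, 11 higher and 24 lower in IMZ + CTD. Gclm was lower with IMZ than with THI as partner (log2 difference -0.59 ± 0.12 (SE), adjusted p = 0.027), the THI + CTD rats being at 103 to 123 CPM. The same held for Abcb1a (-0.98, adjusted p = 0.027, THI + CTD at 50.5 to 65.96 CPM) and for Por (-1.24, adjusted p = 0.027, THI + CTD at 213 to 272 CPM). Cyp2b2 missed the threshold with -2.31 ± 0.51 (SE), adjusted p = 0.052.

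Of the 27 targets of PPAR alpha 2 were called in this contrast, Acot2 (-0.91, adjusted p = 0.028) and Pex11a (-0.95, adjusted p = 0.016), both lower with IMZ as partner. Acot3 (-1.02, adjusted p = 0.0078) and Abcd3 (-0.77, adjusted p = 0.012), the genes chosen after their values were seen, were lower as well. Dbp and Hlf were lower too, with log2 differences of -1.0 ± 0.20 (SE), adjusted p = 0.027 and -1.32 ± 0.27 (SE), adjusted p = 0.027. On the other side, Ky, Cdo1, Tdo2 and Stat5b were higher in IMZ + CTD than in THI + CTD, by 1.6, 0.68, 1.14 and 0.36 on the log2 scale (adjusted p = 0.035, 0.0044, 0.027 and 0.033). For Stat5b the THI + CTD rats were at 68.9 to 77.1 CPM, close to CTD, and the mixture with IMZ close to control. The gene ENSRNOG00000037549, listed without a symbol and chosen after its values were seen, was at 1614, 2992, 2160.1 and 3644 CPM in IMZ + CTD, 449.9, 212 and 218 CPM in CTD (log2 fold change 3.15 ± 0.94 (SE), adjusted p = 0.043) and 128 to 225 CPM in THI + CTD (log2 difference between the mixtures 4.04 ± 0.87 (SE), adjusted p = 0.039), against 671 to 4269.9 CPM in controls. ENSRNOG00000037549 lost its call against CTD without IMZ + CTD rat 2, 3 or 4, or CTD rat 1, 2 or 3 (adjusted p from 0.061 to 0.15). Scamp3, at 38.3 to 45.3 CPM in THI + CTD, did not differ by the test between the mixtures (log2 difference -0.06, adjusted p = 0.89). Leaving out 1 of the 8 rats gave from 3 calls in this contrast, without THI + CTD rat 2, to 31, without THI + CTD rat 4. Acot3 and Cdo1 were the named genes that held their call without any 1 of the 8 rats. Abcd3 kept it in 6 of the 8 fits and Pex11a in 4. Gclm, Por, Hlf and Acot2 kept it in 2 fits, and Dbp, Ky, Abcb1a, Tdo2 and Syncrip in 1. Stat5b (adjusted p from 0.053 to 0.15) and ENSRNOG00000037549 (from 0.051 to 0.15) kept it in 0.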

How the data were processed

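Livers of 31 rats were sequenced with the TruSeq Stranded Total RNA kit (paired-end, 100 bases). Per the labels and the study's methods, the authors trimmed adapters with Skewer, checked reads with FastQC 0.11.5, mapped uniquely to Rnor_5.0 and counted with STAR 2.5.2b. The annotation release and the strand setting of the counting are not given in the sources used here, and coordinates of genes are not given. The authors deposited whole-number counts per gene for 26312 genes and a normalized signal, equal to the count divided by a DESeq2 size factor, for 19904. The study lists a lower share of uniquely mapped reads for the CTD libraries than for the IMZ + CTD libraries, and its part in the results was not tested.

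Groups were read from the treatment labels, and each library is 1 rat. Genes with a summed count of at least 2 were normalized with TMM and fitted in 1 model of 7 groups over 31 libraries with the quasi-likelihood test of edgeR 4.0.16 (R 4.3.3). The Benjamini-Hochberg adjustment covered all 19904 genes, and an adjusted p below 0.05 was called. Standard errors came from dividing each log2 fold change by the root of its F statistic. CPM are counts per M (mega) of TMM-scaled totals, and log2 CPM used a prior count of 2. For symbols found under more than one identifier, the one with the highest mean CPM was used. The 51 lists were described by counts and medians, without set tests. Single library measures were compared by exact permutation tests. The steps were tested on simulated data. limma 3.58.1 (log2 of the signal plus a pseudocount of 1) and DESeq2 1.42.0 served as alternatives, with other scalings, filters, thinned counts, a replicate block and each rat left out. 

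Genes named are the 10 largest changes in each direction among genes with a symbol, a call, a mean log2 CPM above 0 and no overlap between groups, the first 4 of each list, up to 4 further called members, and the 10 the study singled out. The genes described and the lists were chosen with earlier results of these data known. Listed symbols that were not matched were not analysed here, and some members of the lists are not reported here by name. Promoters are from RefSeq (GRCr8).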

Additional observations from a re-analysis of the deposited data

Results flagged for a closer look

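In 7 of the named genes, 1 of the 4 IMZ + CTD rats lay far from the other 3. Chance alone sets about 1 in 20 groups of 4 apart in this way, and 121 genes were looked at. The values were 1.70 CPM of Ccne2 in rat 4, 5.61 CPM of Mrpl40 in rat 3, 215 CPM of Sult1b1 in rat 3, 679 CPM of Pc in rat 4, 25.2 CPM of Thrb in rat 3, 299 CPM of Oaz1 in rat 2 and 44.3 CPM of Hist1h1d in rat 1.

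The difference from full-dose CTD depended on the partner of CTD for 15 named genes, tested as the log2 difference between IMZ + CTD and THI + CTD (edgeR, adjusted p from 0.0044 to 0.039). It was lower with IMZ as partner for Por (-1.24), Hlf (-1.32), Acot3 (-1.02), Dbp (-1.0), Abcb1a (-0.98), Pex11a (-0.95), Acot2 (-0.91), Abcd3 (-0.77), Gclm (-0.59) and Syncrip (-0.45). It was higher for ENSRNOG00000037549 (4.04), Ky (1.60), Tdo2 (1.14), Cdo1 (0.68) and Stat5b (0.36). Por and Tdo2 were not called in the main comparison. Por was at 107, 96.97, 121 and 82.3 CPM in IMZ + CTD and 91.6, 147 and 69.2 CPM in CTD, against 213 to 272 CPM in THI + CTD. Of these 15, Acot3 and Cdo1 held the call whichever of the 8 rats was left out, with adjusted p of at most 0.046 and 0.037. Stat5b and ENSRNOG00000037549 kept it in 0 of the 8 fits. Por, Acot3, Abcd3, Cdo1, Tdo2, Syncrip and ENSRNOG00000037549 were chosen after their values were seen. The number 15 therefore does not measure how common such differences are, and over all genes tested 35 were called (0.176%).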

How the results depend on the processing

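All 93 called genes with a printed value kept their sign under all 17 alternatives, and 33 kept their call under each of them. Without any 1 of the 7 rats 36 kept the call and 57 lost it without at least 1, most often without CTD rat 1 (39) or CTD rat 2 (39). The cause of these losses was not tested, beyond the smaller number of rats. Leaving out 1 rat gave 594 to 1038 DEGs against CTD (335 to 522 higher and 259 to 516 lower), the fewest without CTD rat 1. Of the 594 called without CTD rat 1, 506 were among the 1100. The sign reversed in 4 genes that were not called, with log2 fold changes across these fits of -3.49 to 0.10 for Cyp2b1, -0.98 to 0.24 for Cdk1, -0.59 to 0.41 for Ccnb1 and -0.23 to 0.34 for Por, which was also at 0.0455 by limma and at 0.15 with the replicate block.

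The DESeq2 Wald test called 1654 genes (858 higher), of which 1090 were shared with the main 1100. A fit of only the 2 groups called 428 (234 higher and 194 lower), 373 of them shared, where fewer rats inform the spread, and 31 named genes lost their call (adjusted p from 0.050 to 0.21), Dbp among them. Library totals gave 273 higher and 897 lower, with 11 named genes losing the call (0.054 to 0.28): Tm7sf2, Cdk4, Btg2, Ppp1r15a, Foxo1, Pc, Asl, F12, Cfi, Tmprss6 and Commd7. The other settings, apart from the replicate block, gave 1039 to 1406 DEGs. Against THI + CTD, 85 genes (76 lower) were called with library totals, 191 (93 higher and 98 lower) by the DESeq2 Wald test, 86 (41 and 45) in a fit of only the 2 groups, and 19 higher with filterByExpr. Leaving out 1 of 8 rats gave 3 to 31 (1 to 9 higher, 2 to 22 lower).

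The replicate numbers in the labels do not pair the rats: deviations of same-numbered rats correlated at -0.13 to 0.02 between IMZ + CTD and CTD and at -0.17 to 0.04 between the mixtures. With the replicate number as a block there were 845 DEGs against CTD (444 higher and 401 lower) and 50 against THI + CTD (37 lower). No rat correlated best with its own number.

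Both groups are small, and the CTD group cannot be replaced by other rats at that dose. At this depth, simulated log2 changes of 1 were recovered in 84 of 100 genes and of 2 in 97 of 100, with 1 false call. The changed genes all had a mean log2 CPM above 0. Apart from these changes all groups shared the same means, and the spread was the one estimated by the fit. The simulation held no group that stands apart as CTD does, so these rates do not carry over to the calls above. Genes near a few counts per library, such as Slc24a3 and Col6a5, are the least certain.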
